A study of Mus musculus with 6 samples.

Results

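The comparison described here sets fibroblasts that stayed in tamoxifen against fibroblasts from which tamoxifen was withdrawn, across every gene that both arrays of at least 1 of these groups measured well above background. That rule took 4 of the 6 arrays of the study and 22581 of 23060 tested genes, 13813 of them with a gene symbol. All cells were tail tissue fibroblasts (TTF) of C57BL/6 mice, grown out of minced tail pieces on collagen I in serum-containing medium. Every group carried the same LH2 F/F CAG-Cre genotype, given in the labels as LH2 cKO, so the controls hold the floxed allele and the Cre as well. Both compared groups had 24 h of tamoxifen; the no.1 cells were then in tamoxifen (+) medium and the no.2 cells in tamoxifen (-) medium, with 2 arrays each. The control cells (2 arrays) were in tamoxifen (-) medium and are described in the labels without the tamoxifen treatment. No label ties the 2 arrays of a group to different cultures or animals, so the spread between them may be technical. The scanner file names, however, carry different hours for the 2 arrays of no.1 and of no.2, as described below. No group received tamoxifen without an inducible LH2 allele, and the CAG promoter drives Cre in most cell types, so tamoxifen itself and the loss of LH2 cannot be told apart from these groups.

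Tamoxifen binds estrogen receptors, and it also switches on Cre enzymes that are fused to a mutated receptor domain, which then cut out the floxed part of a gene. LH2, encoded by Plod2, hydroxylates lysines in the ends of collagen chains before the collagen is secreted and crosslinked. Fibroblasts in culture make most of the collagen-rich matrix, divide when serum is present and respond to type I interferon, a secreted alarm signal that turns on antiviral genes in cells with its receptor.

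Levels are given as log2 of the processed signal minus the 75th percentile of the same array, so a level of 0 is the 75th percentile and a difference of 1 is 2-fold. A difference is the mean of the no.1 arrays minus the mean of the no.2 arrays, with the standard error (SE) of limma's fit. The fit pools the spread within all 3 groups, and the control arrays lay closer together than those of the compared groups. The robust standard deviation (SD) between the 2 arrays was 0.172 in the controls, 0.411 in no.1 and 0.480 in no.2. Levels of different genes come from different probes and are not set against each other. The probes well above background made up 53.4% and 53.5% in no.1 against 48.4% and 48.6% in no.2. No gene passed limma's test at a Benjamini-Hochberg adjusted p under 0.05 in either direction (0% higher and 0% lower), and the lowest adjusted p was 0.206. At an unadjusted p under 0.05 there were 1899 genes on the higher side in no.1 and 1926 on the lower side, 3825 in all. With no control arrays in limma's fit this number was 2532, and the lowest adjusted p was 0.385. Leaving out no.1 array 2, with the remaining no.1 array assumed to vary like the other groups, limma called 2 genes higher and 115 lower. With no filter on dim probes, 45616 genes were tested and limma called 520 higher and 7776 lower.

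The 4 arrays did not fall into 2 tight pairs. Of the measured genes, 5.95% differed by more than 2-fold within no.1 and 8.32% within no.2. Across the groups the share was 19.0% for no.1 array 1 against no.2 array 2 and 14.0% for no.1 array 1 against no.2 array 1. It was 7.72% for no.1 array 2 against no.2 array 2 and only 3.48% for no.1 array 2 against no.2 array 1. By this share the closest pair of the 4 arrays joined the groups, with no.1 array 1 and no.2 array 2 at the far ends. By the robust SD the closest pair was instead the 2 no.1 arrays, at 0.411. The robust SD was 0.436 for no.1 array 2 against no.2 array 1 and 0.434 against no.2 array 2. The names of the deposited scanner files carry 24 h for array 1 and 48 h for array 2 of either group. The labels, in contrast, list the arrays of a group alike. For the control arrays the file names carry 0 h, so the controls differ in this time from all 4 arrays. The part of that time in the results was not tested.

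**Figure D1:**
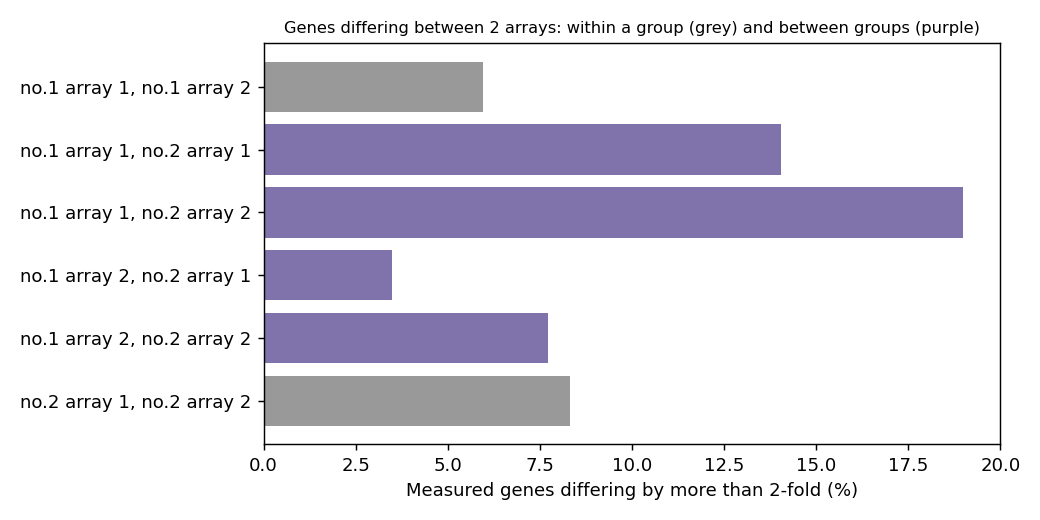
Share of the 22581 measured genes that differed by more than 2-fold between 2 arrays, on the horizontal axis in percent, for the 6 pairs among the no.1 and no.2 arrays; grey bars are pairs within a group and purple bars pairs between groups. The bar for no.1 array 2 against no.2 array 1 is the shortest (3.48%) and that for no.1 array 1 against no.2 array 2 the longest (19.0%).

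A gene's groups did not overlap where both no.1 arrays lay on the same side of both no.2 arrays. This held for 5181 genes on the higher side in no.1 (22.9%) and for 5691 on the lower side (25.2%), and these shares are the background for every count below. The split depended on the scaling: it was 15373 higher and 103 lower with each array scaled to its spike-in controls, 6513 and 4301 with scaling to the median probe, and 5625 and 9878 after normexp background correction. Spike-in scaling shifted the median difference of all genes to 0.65, so it moves lists toward the higher side together. Groups separated by a gap of at least 1, the lowest array of the higher group being at least 2-fold above the highest array of the other, were found for 95 genes on the higher side (0.421%) and 31 on the lower side (0.137%). Most of these genes were not well above background on all 4 arrays. Among the 19917 genes that were, such a gap was found for 15 on the higher side and 7 on the lower side. The mean differed by at least 2-fold for 675 genes higher in no.1 and for 891 lower in no.1.

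Promoters of 2 gene families are shown because their genes stood together on the arrays: genes of cell division, and genes turned on by interferon. The promoter of a lysosomal protease stands for the lysosomal genes described further on. Each line gives the 250 bases before the annotated start of the gene, 5′ to 3′ on the gene's strand, from RefSeq with the build GRCm38.p6. Capitals mark the interferon-stimulated response element (GAAANNGAAA on either strand), bound by interferon-activated factors, in Ifit3 (chr19:34583279-34583528, plus strand), Isg15 (chr4:156200819-156201068, minus strand) and Bst2 (chr8:71537473-71537722, minus strand). In Isg15 and Bst2 the matches overlap each other.
Ifit3: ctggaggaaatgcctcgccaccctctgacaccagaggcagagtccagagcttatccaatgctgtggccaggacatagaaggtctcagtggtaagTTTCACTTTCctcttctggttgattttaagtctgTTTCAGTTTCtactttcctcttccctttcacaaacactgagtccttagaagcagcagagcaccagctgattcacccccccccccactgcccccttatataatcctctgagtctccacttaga
Isg15: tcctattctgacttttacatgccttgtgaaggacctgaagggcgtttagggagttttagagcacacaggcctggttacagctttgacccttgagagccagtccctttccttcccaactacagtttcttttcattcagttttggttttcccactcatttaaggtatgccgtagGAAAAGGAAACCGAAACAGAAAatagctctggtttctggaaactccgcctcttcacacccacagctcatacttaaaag
Bst2: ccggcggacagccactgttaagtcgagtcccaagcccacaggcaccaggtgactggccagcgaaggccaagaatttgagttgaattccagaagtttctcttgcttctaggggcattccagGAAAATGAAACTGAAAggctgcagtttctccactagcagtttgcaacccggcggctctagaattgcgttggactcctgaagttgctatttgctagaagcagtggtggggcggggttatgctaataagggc
Capitals mark the cell cycle genes homology region (TTTGAA) and the CCAAT box (CCAAT), both on either strand, in Kif11 (chr19:37376132-37376381, plus strand) and Ckap2l (chr2:129297213-129297462, minus strand). These elements are known from promoters of genes switched on late in the cell cycle.
Kif11: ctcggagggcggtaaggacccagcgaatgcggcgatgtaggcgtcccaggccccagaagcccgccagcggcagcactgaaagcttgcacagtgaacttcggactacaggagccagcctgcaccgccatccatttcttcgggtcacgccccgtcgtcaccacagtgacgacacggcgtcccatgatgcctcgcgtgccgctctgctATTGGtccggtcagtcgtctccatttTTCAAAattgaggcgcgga
Ckap2l: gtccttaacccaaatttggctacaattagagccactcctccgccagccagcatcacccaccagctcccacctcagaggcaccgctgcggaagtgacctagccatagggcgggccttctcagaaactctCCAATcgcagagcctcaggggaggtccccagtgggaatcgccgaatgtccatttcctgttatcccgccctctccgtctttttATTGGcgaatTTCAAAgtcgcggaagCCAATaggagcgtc
Capitals mark the element TCACGTGA, known from promoters of lysosomal genes, in Ctsd (chr7:142387828-142388077, minus strand).
Ctsd: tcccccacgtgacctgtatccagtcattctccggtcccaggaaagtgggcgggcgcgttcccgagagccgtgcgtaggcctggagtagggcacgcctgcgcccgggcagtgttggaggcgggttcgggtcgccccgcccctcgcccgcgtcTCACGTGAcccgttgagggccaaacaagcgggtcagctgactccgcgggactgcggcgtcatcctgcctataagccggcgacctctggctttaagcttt

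The interferon-stimulated response element lay in the window of 13 of the 31 interferon-induced effectors with a promoter in the table (41.9%), against 3.46% of 27025 genes. TTTGAA lay in 11 of 25 mitotic spindle genes (44.0%), against 18.3% of all genes, and CCAAT in 17 of the 25 (68.0%), against 37.5%. The second form of the homology region, TTCGAA, lay in 0 of the 25 and in 1.55% of all genes. TCACGTGA lay in 4 of 33 lysosomal hydrolases (12.1%), against 0.907% of all genes. The estrogen response element GGTCANNNTGACC lay in 0 of 17 genes of the estrogen-responsive list and in 0.0666% of all genes. A match says only that these letters are present, and their absence only that they are not in this window.

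Genes of mitosis stood on the higher side in the cells kept in tamoxifen, on both arrays. All 28 mitotic kinesins, spindle and cytokinesis genes had a higher mean in no.1 (median difference 0.86, against 0.00 over all measured genes), and the groups did not overlap in 23 of the 28. Differences ran from 0.20 to 1.55. Of the 4 arrays, no.1 array 1 was the highest for 27 of the 28 genes and no.2 array 2 the lowest for 26. Cenpe encodes a kinesin that carries chromosomes to the middle of the spindle. It was at 3.58 and 3.41 in no.1, at 2.44 and 1.43 in no.2 and at 0.42 and 0.28 in the controls (difference 1.55, SE 0.35). Both no.1 arrays lay above both no.2 arrays, which in turn lay above both controls. Kif20b, a kinesin of the last step of cell division, was at 1.46 and 1.53 in no.1, at 0.25 and -0.11 in no.2 and at -1.03 and -1.31 in the controls (difference 1.43, SE 0.22). Kif18a, which shortens spindle microtubules and steadies the chromosomes, was at -0.84 and -1.15 in no.1 and at -2.26 and -2.44 in no.2 (difference 1.35, SE 0.24). For both kinesins the 2 arrays of a group lay closer together than the groups did. Hmmr, which helps to organise spindle poles, was at 1.71 and 1.40 against 0.48 and 0.42 (difference 1.10, SE 0.20), and the spindle protein genes Kif11 and Ckap2l, whose promoters are printed above, had differences of 0.81 and 0.81. The limma adjusted p was 0.282 for each of Cenpe, Kif20b, Kif18a and Hmmr. In a bulk RNA sample, fewer cells in a phase of the cycle and less RNA per such cell cannot be told apart. The mitotic genes had a median of 0.56 without no.1 array 1.

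Kinetochore, cohesin and cell cycle regulator genes followed the same order of arrays. All 33 kinetochore and centromere genes had a higher mean in no.1 (median 0.68), 23 of them without overlap; no.1 array 1 was the highest for 32. Cenpk, a subunit of the inner kinetochore, was at 1.62 and 1.28 in no.1 and at 0.35 and 0.26 in no.2 (difference 1.15, SE 0.22). Cenpf, a large kinetochore protein that accumulates before mitosis, was at 2.05 and 1.79 against 0.91 and 0.05 (difference 1.44, SE 0.31). In each of these genes the no.1 arrays were above both no.2 arrays. Of 24 cohesin, condensin and SMC genes, which encode the rings that hold and compact chromosomes, 22 were on the higher side (median 0.76) and 20 did not overlap. The condensin core Smc2 was at 3.03 and 2.54 against 1.70 and 1.00 (difference 1.44, SE 0.31), and its partner Smc4 at 3.12 and 2.99 against 2.19 and 1.31 (difference 1.31, SE 0.32). Smc6, which acts in DNA repair, was at 2.00 and 2.02 against 1.06 and 0.98 (difference 0.99, SE 0.19), and Slf1, which brings the Smc5 and Smc6 complex to damaged DNA, at 0.15 and 0.13 against -0.89 and -1.15 (difference 1.16, SE 0.23). Smc5 itself did not follow: it was at 2.67 and 2.60 in no.1 and at 3.29 and 2.07 in no.2, so that the groups overlapped. Of 35 cell cycle kinases, cyclins and regulators, 34 were on the higher side (median 0.66) and 23 did not overlap. The proliferation marker Mki67 was at 4.54 and 4.03 against 3.16 and 2.28, with the controls at 0.76 and 0.58 (difference 1.56, SE 0.34). Mad2l1, of the spindle checkpoint, was at 4.21 and 3.15 against 2.43 and 2.30 (difference 1.31, SE 0.36). The kinetochore genes had a median of 0.40 without no.1 array 1. The cell cycle regulators had a median of 0.31 without no.1 array 1, 1.03 without no.1 array 2 and 0.44 without no.2 array 2.

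Genes of DNA copying and repair stood on the same side. Of 42 replication genes, 40 were on the higher side (median 0.47) and 22 did not overlap. Pola1, the catalytic subunit of the polymerase that starts new strands, was at 2.30 and 1.74 in no.1 and at 0.99 and 0.41 in no.2 (difference 1.32, SE 0.31). Dbf4 and Cdc7, which form the kinase that fires replication origins, had differences of 1.14 (SE 0.34) and 0.86 (SE 0.30). Of 26 DNA repair genes, 25 were on the higher side (median 0.72, and 0.34 with normexp), 19 of them without overlap. Atr, the kinase that senses stalled replication forks, was at 1.53 and 0.95 against 0.14 and -0.14 (difference 1.24, SE 0.26), and its activator Topbp1 at 2.09 and 1.40 against 0.85 and 0.79 (difference 0.92, SE 0.28). Of 32 centrosome genes 31 were on the higher side (median 0.41) and 17 did not overlap; Cep135, a centriole protein, was at -1.52 and -1.61 against -2.42 and -2.52 (difference 0.90, SE 0.19). The replication genes had a median of 0.23 without no.1 array 1, 0.74 without no.1 array 2, 0.78 without no.2 array 1 and 0.26 without no.2 array 2. The repair genes had a median of 0.43 without no.1 array 1.

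**Figure D2:**
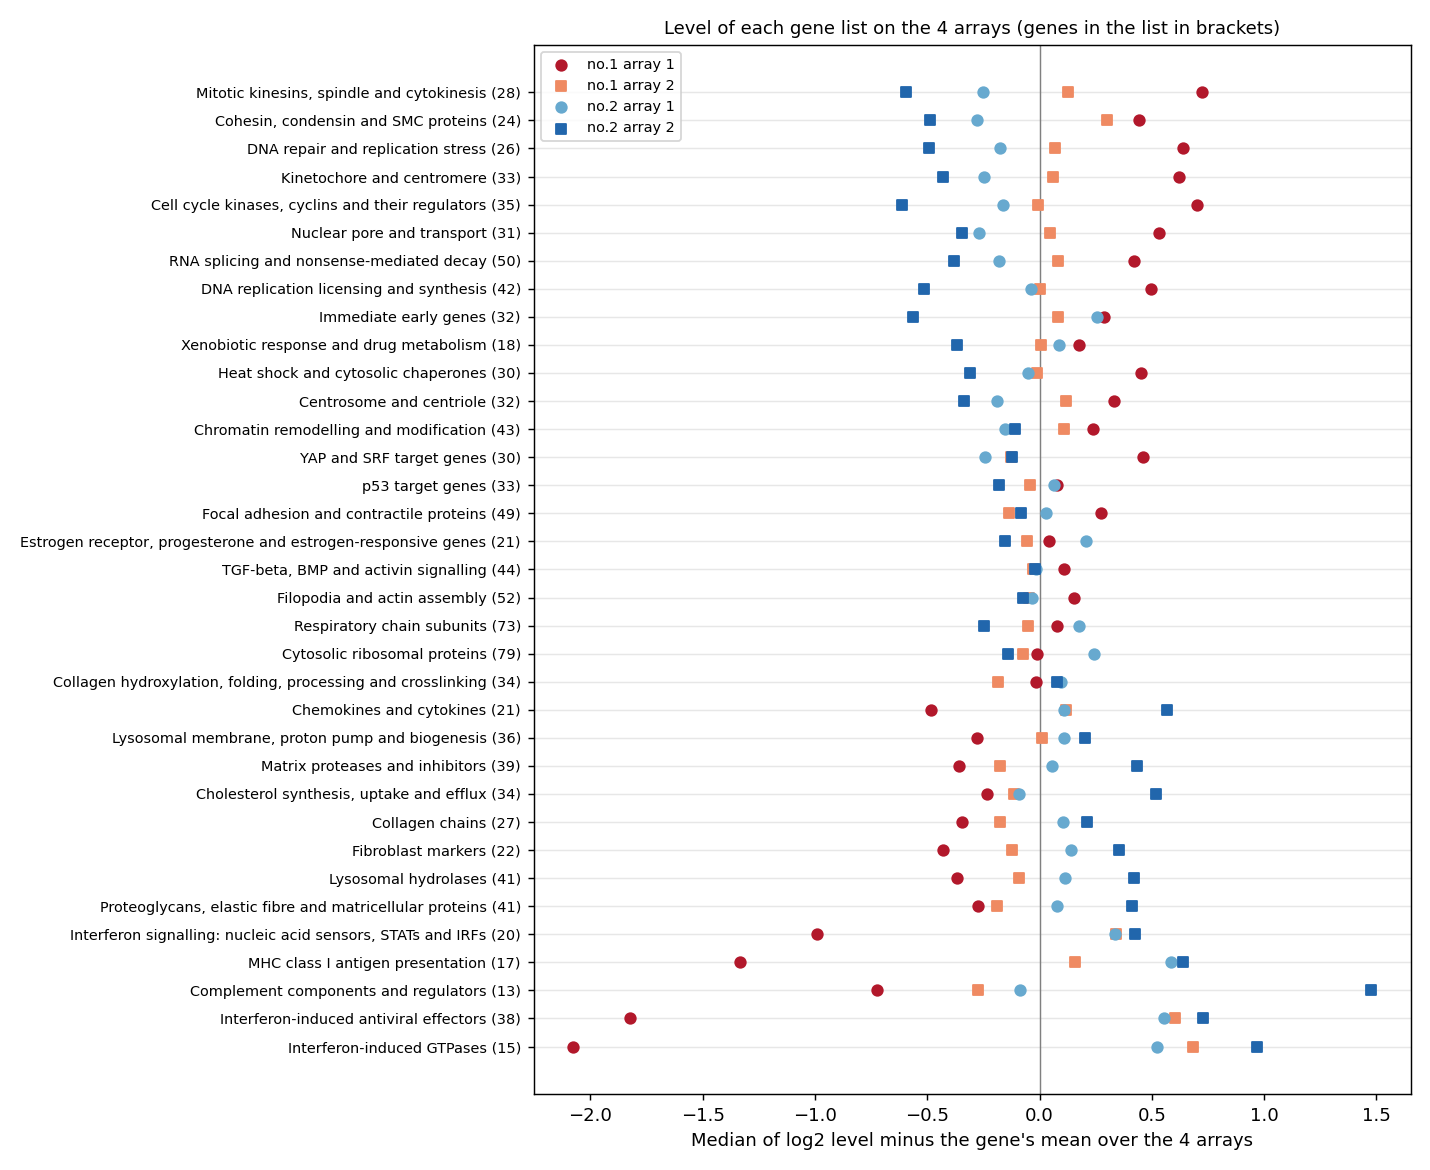
Position of each gene list on the 4 arrays, as the median over its genes of the log2 level minus the gene's own mean over the 4 arrays (horizontal axis); red points are no.1 array 1, orange squares no.1 array 2, light blue points no.2 array 1 and dark blue squares no.2 array 2. Lists of cell division run from no.1 array 1 on the right to no.2 array 2 on the left, while in the interferon lists at the bottom no.1 array 1 stands alone on the left; scaled to spike-in controls, all positions of no.1 move to the right.

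Nuclear transport and RNA processing genes were among the lists with the most genes apart. All 31 nuclear pore and transport genes had a higher mean in no.1 (median 0.61), 24 of them without overlap. Ranbp2, a filament protein of the pore, was at 1.54 and 1.43 in no.1 and at 0.68 and 0.36 in no.2 (difference 0.97, SE 0.21). Xpo1, the main exporter of proteins from the nucleus, was at 3.27 and 2.69 against 2.18 and 1.68 (difference 1.05, SE 0.29). Of 50 splicing and nonsense-mediated decay genes, 43 were on the higher side (median 0.51), 35 of them without overlap and 3 without overlap on the lower side. Upf3b, which links splicing to the decay of faulty messages, was at 0.29 and 0.41 against -0.71 and -0.85 (difference 1.13, SE 0.19). Ccar1, a regulator of transcription and cell division, was at 2.57 and 2.35 against 1.31 and 1.33 (difference 1.14, SE 0.19). In both genes the arrays of a group lay closer together than the groups did. Within the list Srek1, a splicing factor, was on the other side, at 6.06 and 6.22 against 6.37 and 6.78 (difference -0.43, SE 0.22, spike-in 0.22). Of 43 chromatin genes 29 were on the higher side (median 0.23) and 20 did not overlap. Ezh2 and Suz12, of the complex that writes a repressive histone mark, were at 2.86 and 2.26 against 1.62 and 1.62 (difference 0.94, SE 0.29) and at 1.11 and 0.83 against 0.16 and -0.15 (difference 0.97, SE 0.22). The nuclear pore genes had a median of 0.31 without no.1 array 1. The chromatin genes had a median of 0.38 without no.1 array 2 and 0.35 without no.2 array 1.

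Protein-folding genes were mostly on the higher side, with exceptions. Of 30 heat shock and chaperone genes 24 were on the higher side (median 0.42), with 17 that did not overlap on that side and 5 on the lower side. The mitochondrial chaperonin Hspd1 was at 6.67 and 6.01 in no.1 and at 5.50 and 5.42 in no.2 (difference 0.88, SE 0.26), and Hspa4l, of the Hsp110 family, at 1.90 and 1.23 against 0.59 and 0.68 (difference 0.93, SE 0.29). The stress-inducible Hspa1a was on the other side, at 1.95 and 2.01 against 2.42 and 2.69 (difference -0.58, SE 0.20, spike-in 0.074), as was the small heat shock protein gene Cryab, at 3.02 and 2.99 against 3.24 and 3.87 (difference -0.55, SE 0.26, spike-in 0.11). The full range of the list was -0.58 to 1.01. Cytosolic ribosomal protein genes (79, median -0.08) and respiratory chain subunits (73, median 0.03) lay near 0, with 6 ribosomal and 15 respiratory genes without overlap on the higher side and 15 and 5 on the lower side; spike-in scaling put both medians on the higher side, at 0.57 and 0.68. The chaperones had a median of 0.17 without no.1 array 1 and 0.70 without no.1 array 2. The respiratory subunits had a median of -0.052 without no.1 array 1, 0.073 without no.1 array 2, 0.27 without no.2 array 1 and -0.20 without no.2 array 2. The ribosomal proteins had a median of 0.08 without no.2 array 1 and -0.30 without no.2 array 2.

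The genes with the largest gaps on the higher side came from several functions. Pde5a, the enzyme that breaks down cyclic GMP, was at -1.12 and -1.42 in no.1 and at -2.69 and -3.13 in no.2, while the controls were at -1.54 and -1.55 (difference 1.64, SE 0.24). Ptgs2, the inducible cyclooxygenase that makes prostaglandins, was at 4.31 and 3.84 against 2.88 and 2.08, with controls at 3.33 and 3.36 (difference 1.60, SE 0.32). In both genes the controls lay between the groups, whereas for Cenpe and Kif20b they were lowest. Nexn, an actin-binding protein of contractile cells, was at 1.83 and 1.71 against 0.69 and 0.78 (difference 1.03, SE 0.19). Depdc1a, a mitotic protein, was at 0.61 and 0.19 against -0.89 and -1.82 (difference 1.75, SE 0.36). Chml, which helps to attach lipid anchors to Rab proteins, was at -0.73 and -1.29 against -2.29 and -2.73 (difference 1.50, SE 0.35), and the zinc finger gene Zfp948 at -0.43 and -0.17 against -1.53 and -1.84 (difference 1.39, SE 0.28).

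**Figure D3:**
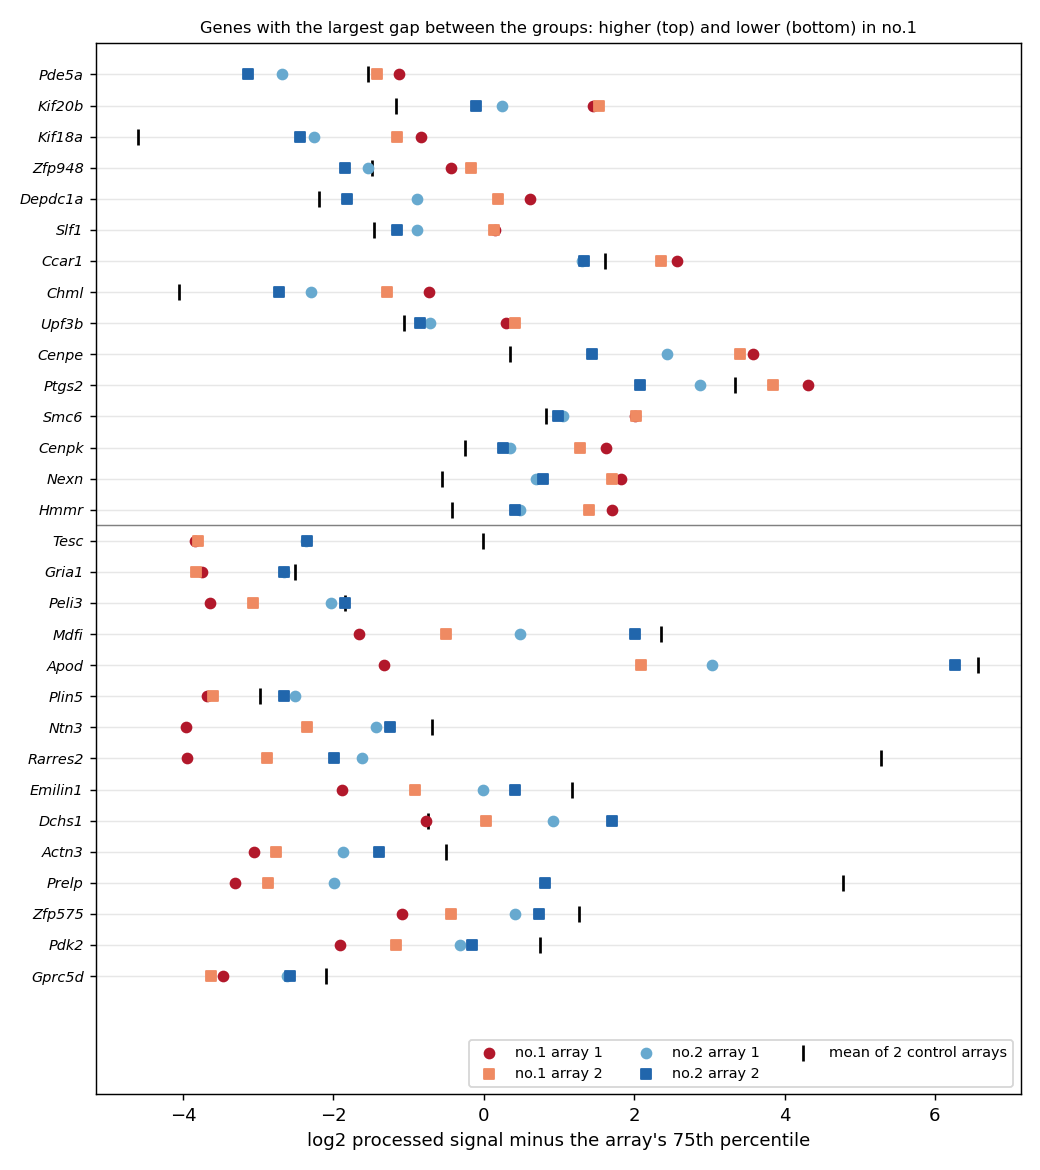
Levels on each array (horizontal axis, log2 level with the 75th percentile of each array at 0) of the 15 genes in each direction with the widest gap between the groups among genes well above background on all 4 arrays; the black tick is the mean of the 2 control arrays. Above the line both no.1 arrays (red, orange) lie right of both no.2 arrays (blue), below it to the left; for Apod and Prelp the no.2 arrays lie far apart.

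On the lower side, several genes had groups that were far apart in level but loose within a group. Tesc, a calcium-binding protein, was the tightest: it was at -3.84 and -3.81 in no.1 and at -2.36 and -2.35 in no.2, with controls at -0.19 and 0.16 (difference -1.46, SE 0.21). Gria1, a glutamate receptor subunit, was at -3.75 and -3.83 against -2.66 and -2.66 (difference -1.13, SE 0.27). In no.1 both genes were dim: the lowest level well above background was -4.29 on no.1 array 1 and -4.16 on no.1 array 2. With normexp background correction, 0 genes kept a gap of at least 1 on the lower side. The part of dim signal in the gaps of Tesc and Gria1 was not tested. Apod, a lipid carrier that quiescent fibroblasts make, had the widest spread, at -1.33 and 2.09 in no.1, at 3.03 and 6.26 in no.2 and at 6.53 and 6.63 in the controls (difference -4.27, SE 1.36). The arrays of each treated group differed by 3.41 and 3.23, and the order of the 4 arrays was the one seen in the division genes turned round. Mdfi, an inhibitor of myogenic transcription factors, was at -1.66 and -0.51 against 0.49 and 2.02, with controls at 2.37 and 2.33 (difference -2.34, SE 0.58). Rarres2, the secreted attractant chemerin, was at -3.95 and -2.89 against -1.62 and -1.99, while the controls were at 5.24 and 5.32 (difference -1.61, SE 0.37). Dchs1, a giant cadherin, was at -0.77 and 0.03 against 0.92 and 1.71 (difference -1.68, SE 0.37), and Pdk2, which slows the entry of pyruvate into mitochondria, at -1.91 and -1.17 against -0.31 and -0.16 (difference -1.30, SE 0.28). The limma adjusted p was 0.282 for each of these genes and for each gene of the higher side in the plot of gap genes.

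Interferon-induced effectors and GTPases had large median differences that rested on 1 array. Of 38 antiviral effectors 36 were on the lower side in no.1 (median -1.27), of 15 interferon-induced GTPases all 15 (median -1.54) and of 20 sensors, STATs and IRFs 15 (median -0.67). Yet the groups did not overlap on the lower side in only 15, 4 and 8 of them. No.1 array 1 was the lowest of the 4 arrays for 36 of 38 effectors and 15 of 15 GTPases, and 34 effectors and 14 GTPases were more than 2-fold lower on it than on no.1 array 2. Between no.1 array 2 and no.2 array 1, 0 of the 38 effectors differed by more than 2-fold. The effectors had a median of -0.08 without no.1 array 1 and -2.57 without no.1 array 2. The GTPases had a median of -0.051 without no.1 array 1 and -2.87 without no.1 array 2. The sensors, STATs and IRFs had a median of -0.10 without no.1 array 1 and -1.35 without no.1 array 2.

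Ifit3, which binds foreign RNA together with its relatives, was at 1.54 and 6.29 in no.1, at 6.32 and 6.73 in no.2 and at 6.85 and 6.94 in the controls. Isg15, a ubiquitin-like protein, was at 6.50 and 9.23 against 9.58 and 9.48, with controls at 10.14 and 10.37 (difference -1.67, SE 0.80, limma adjusted p = 0.340). Bst2, a protein that tethers budding viruses, was at 5.79 and 7.98 against 8.29 and 8.49 (difference -1.51, SE 0.66, limma adjusted p = 0.315). In these genes, whose promoters are printed above, no.1 array 1 alone stood low and the other 3 arrays lay together. The GTPase gene Gbp2 was at 0.52 and 3.83 against 3.91 and 4.33, and Irgm2 at 2.02 and 4.58 against 4.62 and 5.18. Upstream of them, the transcription factor gene Irf7 was at 4.78 and 7.98 against 8.39 and 8.66 (difference -2.15, SE 0.94). The receptor subunit Ifnar1 was on the other side, at 3.18 and 3.50 against 2.95 and 2.77 (difference 0.48, SE 0.24), within a list range of -3.35 to 0.48. Exceptions among the effectors were Slfn9, at 2.25 and 2.74 against 1.84 and 1.42, and Ifi27, at 6.79 and 5.72 against 5.75 and 4.69; the list ran from -2.75 to 1.04. Slfn, Oas, Gbp and Ifi genes have near-identical relatives, so single members may share probe signal.

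MHC class I genes stood low with the interferon genes on no.1 array 1, and most were also below no.2 on no.1 array 2. MHC class I molecules show fragments of a cell's proteins to T cells. Of 17 genes 16 were on the lower side (median -1.19), and 13 did not overlap. The proteasome subunit Psmb9 was at 0.22 and 3.03 in no.1 and at 3.52 and 3.79 in no.2 (difference -2.03, SE 0.83). The peptide transporter subunit Tap1 was at 2.87 and 4.51 against 5.17 and 5.01 (difference -1.40, SE 0.51), and H2-T23 at 4.45 and 6.09 against 6.62 and 6.98, with controls at 8.30 and 8.38 (difference -1.53, SE 0.51). B2m, the common light chain, overlapped between the groups, at 6.79 and 7.34 against 7.16 and 7.64, and H2-Q4 was on the other side, at 6.75 and 7.43 against 6.66 and 6.56. H2 genes are near-identical in sequence, so the split among them is uncertain. The MHC class I genes had a median of -0.46 without no.1 array 1 and -1.92 without no.1 array 2.

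**Figure D4:**
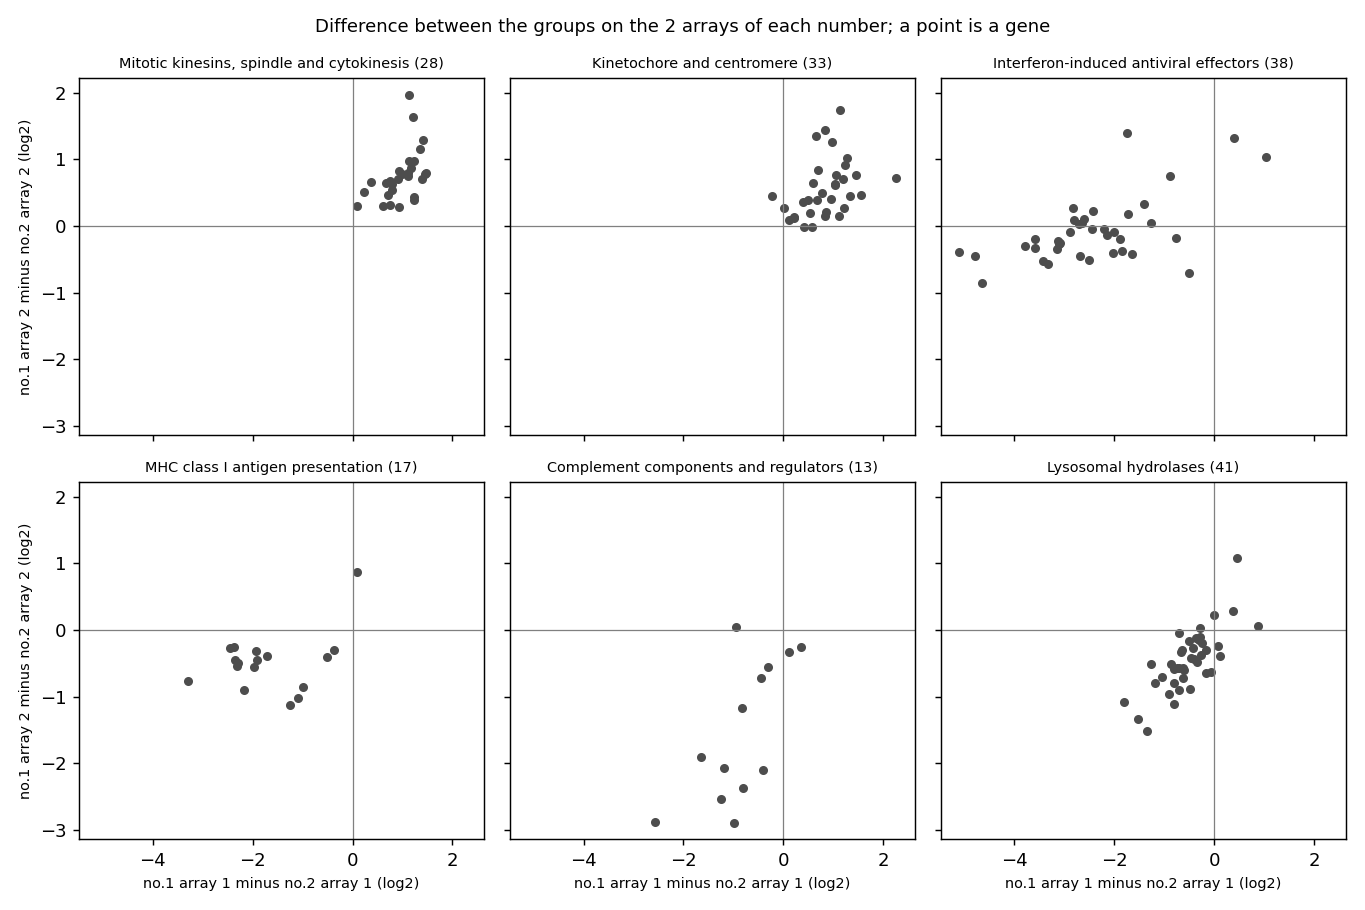
Difference between the groups for each gene of 6 lists, on the arrays numbered 1 (horizontal axis, log2) and on the arrays numbered 2 (vertical axis, log2). Mitotic genes lie above 0 on both axes; interferon effectors spread far to the left while staying near 0 on the vertical axis, and complement genes reach further down than left. Scaled to spike-in controls, the points move to the right and up, and the median of the lysosomal hydrolases is then 0.21.

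Complement genes were lower in no.1 in a graded way, with no.2 array 2 the highest. Of 13 complement components and regulators, which tag and lyse microbes and dead cells, 12 were on the lower side (median -1.25) and 7 did not overlap. No.2 array 2 was the highest array for 11 of the 13. Cfb, a protease subunit of the alternative pathway, was at -1.36 and 0.49 in no.1, at 1.20 and 3.37 in no.2 and at 6.37 and 6.42 in the controls (difference -2.72, SE 0.84). Serping1, which blocks the first complement proteases, was at -3.43 and -3.27 against -2.45 and -0.37, with controls at 4.98 and 4.98 (difference -1.94, SE 0.62). C3, the central component, was at 4.0 and 4.11 against 4.41 and 6.21 (difference -1.25, SE 0.55). In all 3 genes the no.2 arrays lay further apart than no.2 array 1 lay from the no.1 arrays' upper value, so the size of the difference rested on no.2 array 2. Of 21 chemokines and cytokines, 10 were on the higher and 11 on the lower side (median -0.22), 4 and 6 of them without overlap. The list ran from -4.46 to 0.84. On its lower side, Ccl8 was at -0.34 and 0.56 against 0.89 and 2.69 and Cxcl16 at -2.0 and -1.54 against -0.87 and -0.69. The chemokines and cytokines had a median of 0.037 without no.1 array 1, -0.48 without no.1 array 2, -0.73 without no.2 array 1 and -0.35 without no.2 array 2. The complement genes had a median of -2.15 without no.2 array 1 and -0.49 without no.2 array 2.

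Lysosomal hydrolases, the enzymes that break down material in the acid compartment, were lower in no.1 by small amounts in many genes, a direction that turned to a median of 0.21 when arrays were scaled to spike-in controls. Of 41 hydrolases 37 were on the lower side (median -0.44), and 29 did not overlap. Naglu, which trims heparan sulfate, was at 4.30 and 4.93 in no.1 and at 5.49 and 5.73 in no.2 (difference -0.99, SE 0.27). Ctsd, the main aspartic protease of lysosomes, was at 5.92 and 6.40 against 6.95 and 7.10, with controls at 8.30 and 8.42 (difference -0.87, SE 0.23). Acp5, an acid phosphatase, was at -1.73 and -0.82 against -0.21 and 0.51 (difference -1.42, SE 0.38). Both no.1 arrays were below both no.2 arrays in these 3 genes, and the controls were above all 4. Of 36 genes of the lysosomal membrane, proton pump and biogenesis, 32 were on the lower side (median -0.27, and 0.38 with spike-in scaling), 21 of them without overlap. Tfeb, the transcription factor of lysosomal genes, was at -0.45 and -0.20 against 0.03 and 0.27 (difference -0.47, SE 0.21), and Mcoln1, a calcium channel of lysosomes, at 3.59 and 3.96 against 4.22 and 4.43 (difference -0.55, SE 0.22); with spike-in scaling these differences were 0.18 and 0.10. The membrane and biogenesis genes had a median of -0.14 without no.1 array 1 and -0.025 with normexp. The hydrolases had a median of -0.17 with normexp.

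Matrix genes were mostly lower in no.1 under the 75th percentile scaling, and the medians of all 4 matrix lists turned positive with spike-in scaling. Of 27 collagen chains 16 were on the lower side (median -0.41, spike-in 0.24), 12 of them without overlap and 0 without overlap on the higher side. Col5a3, a minor chain of fibrillar collagen V, was at 0.20 and 1.56 in no.1 and at 2.35 and 4.05 in no.2 (difference -2.32, SE 0.65). Col3a1 was at 3.51 and 4.40 against 4.86 and 6.49 (difference -1.72, SE 0.56), and Col6a1, of the filament-forming collagen VI, at 4.56 and 5.35 against 5.96 and 6.34 (difference -1.20, SE 0.31). In these chains no.2 array 2 was the highest of the 4 arrays. The chains of collagen I stood closer: Col1a1 was at 7.45 and 7.28 against 7.77 and 7.72 (difference -0.38, SE 0.19, spike-in 0.27) and Col1a2 at 8.36 and 8.59 against 8.96 and 9.09 (difference -0.55, SE 0.20, spike-in 0.10). The basement membrane chain Col4a1 was on the other side, at 5.11 and 4.06 against 4.28 and 4.03 with overlapping groups, and the list ran from -2.32 to 0.43. Of 41 proteoglycan, elastic fibre and matricellular genes 33 were on the lower side (median -0.48, spike-in 0.17) and 19 of them did not overlap. Emilin1, of elastic fibres, was at -1.89 and -0.91 against -0.01 and 0.41 (difference -1.60, SE 0.35), Mfap2, of microfibrils, at 1.51 and 2.97 against 3.67 and 4.71 (difference -1.95, SE 0.54) and the small proteoglycan gene Dcn at 0.34 and 1.12 against 1.58 and 2.74 (difference -1.43, SE 0.44). Ccn2 and Ccn1, matricellular genes that YAP turns on, were highest on no.1 array 1, at 6.90 and 5.74 against 5.58 and 5.63 and at 6.66 and 5.41 against 5.48 and 5.31. The proteoglycan list had a median of -0.31 without no.1 array 1, -0.28 without no.2 array 2 and -0.21 with normexp. The collagen chains had a median of -0.25 without no.2 array 2 and -0.26 with normexp.

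Collagen-modifying enzymes differed less. Of 34 genes 25 were on the lower side (median -0.22, spike-in 0.44) and 15 of them did not overlap. Of the lysyl hydroxylases, Plod1 was at 1.65 and 1.99 in no.1 and at 2.53 and 2.43 in no.2 (difference -0.66, SE 0.21). Plod3 was at 3.67 and 3.57 against 4.06 and 3.91 (difference -0.36, SE 0.19, spike-in 0.29). Plod2, the floxed gene, was at -1.60 and -2.31 against -2.05 and -2.73, so that its groups overlapped (difference 0.43, SE 0.34, limma adjusted p = 0.517); the stretch of transcript that its probe covers was not analysed here, and with normexp background correction the sign turned to -0.12. Both Plod1 and Plod3 had groups that did not overlap, with differences under 2-fold. P3h3, a prolyl 3-hydroxylase, was at 3.34 and 3.46 against 3.92 and 4.25 (difference -0.69, SE 0.21), and Pcolce, which speeds the trimming of procollagen, at 7.79 and 8.07 against 8.50 and 8.55 (difference -0.60, SE 0.20, spike-in 0.055). Spike-in scaling shifted the median difference of all genes to 0.65, close to the size of the Plod1 and P3h3 differences. P4ha2, a prolyl 4-hydroxylase subunit named after its values were seen, was at 8.57 on no.1 array 2 alone and at 4.45, 4.75 and 4.28 on the other 3 arrays. Of 39 matrix proteases and inhibitors 28 were on the lower side (median -0.38, spike-in 0.27) and 19 of them did not overlap. Mmp19 was at 1.02 and 2.63 against 3.11 and 3.36 (difference -1.41, SE 0.50) and Adamts7, which cleaves cartilage matrix proteins, at 0.15 and 0.85 against 1.48 and 2.23 (difference -1.36, SE 0.34). The modifying enzymes had a median of -0.11 without no.1 array 2. The proteases had a median of -0.59 without no.1 array 2, -0.64 without no.2 array 1 and -0.22 without no.2 array 2.

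Fibroblast identity genes were measured throughout, as the label tail tissue fibroblast implies. Of 28 markers 22 were well above background on all 4 arrays, with 18 of these on the lower side in no.1 (median -0.44, spike-in 0.21), 13 without overlap. Their summed linear level was 2460 and 2745 in no.1, 3381 and 3147 in no.2 and 5870 and 6217 in the controls. Vim, the intermediate filament of mesenchymal cells, was level at 8.12, 8.04, 8.02 and 8.01, whereas Pdgfrb, a growth factor receptor, was at 1.80 and 2.82 against 3.32 and 3.92 (difference -1.31, SE 0.38). Among markers of other cell types the pan-leukocyte gene Ptprc, the macrophage gene Adgre1, the endothelial gene Cdh5 and the keratinocyte genes Krt5 and Krt14 were not well above background on both arrays of either group. The numbers of such markers measured were 7 of 20 for macrophages, 4 of 20 for lymphocytes, 5 of 18 for endothelium, 7 of 19 for keratinocytes, 6 of 22 for skeletal muscle, 7 of 16 for Schwann and neural cells, 6 of 13 for adipocytes, 8 of 13 for mural cells and 9 of 20 for cartilage, bone and tendon. Their summed levels were 28.9 and 33.0 against 37.1 and 30.4 for macrophages, 9.82 and 15.5 against 22.6 and 12.0 for endothelium, 17.7 and 17.3 against 19.1 and 18.3 for keratinocytes, 87.8 and 47.1 against 52.4 and 65.9 for muscle, and 82.8 and 63.9 against 68.0 and 60.2 for Schwann and neural cells. For cartilage, bone and tendon they were 41.2 and 139 against 125 and 108, and for mural cells 1449 and 804 against 987 and 956. For lymphocytes they were 3.31 and 4.43 against 6.13 and 4.53, and for adipocytes 4.42 and 3.80 against 3.67 and 4.07. Among these other cell types, no.1 array 1 was the lowest of the 4 for macrophages, lymphocytes, endothelium and cartilage, bone and tendon. That array was the highest for mural cells, muscle, Schwann and neural cells and adipocytes, and in between for keratinocytes. The part of these cell types in the matrix and interferon differences was not tested. The fibroblast markers had a median of -0.69 without no.1 array 2 and -0.18 with normexp.

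**Figure D5:**
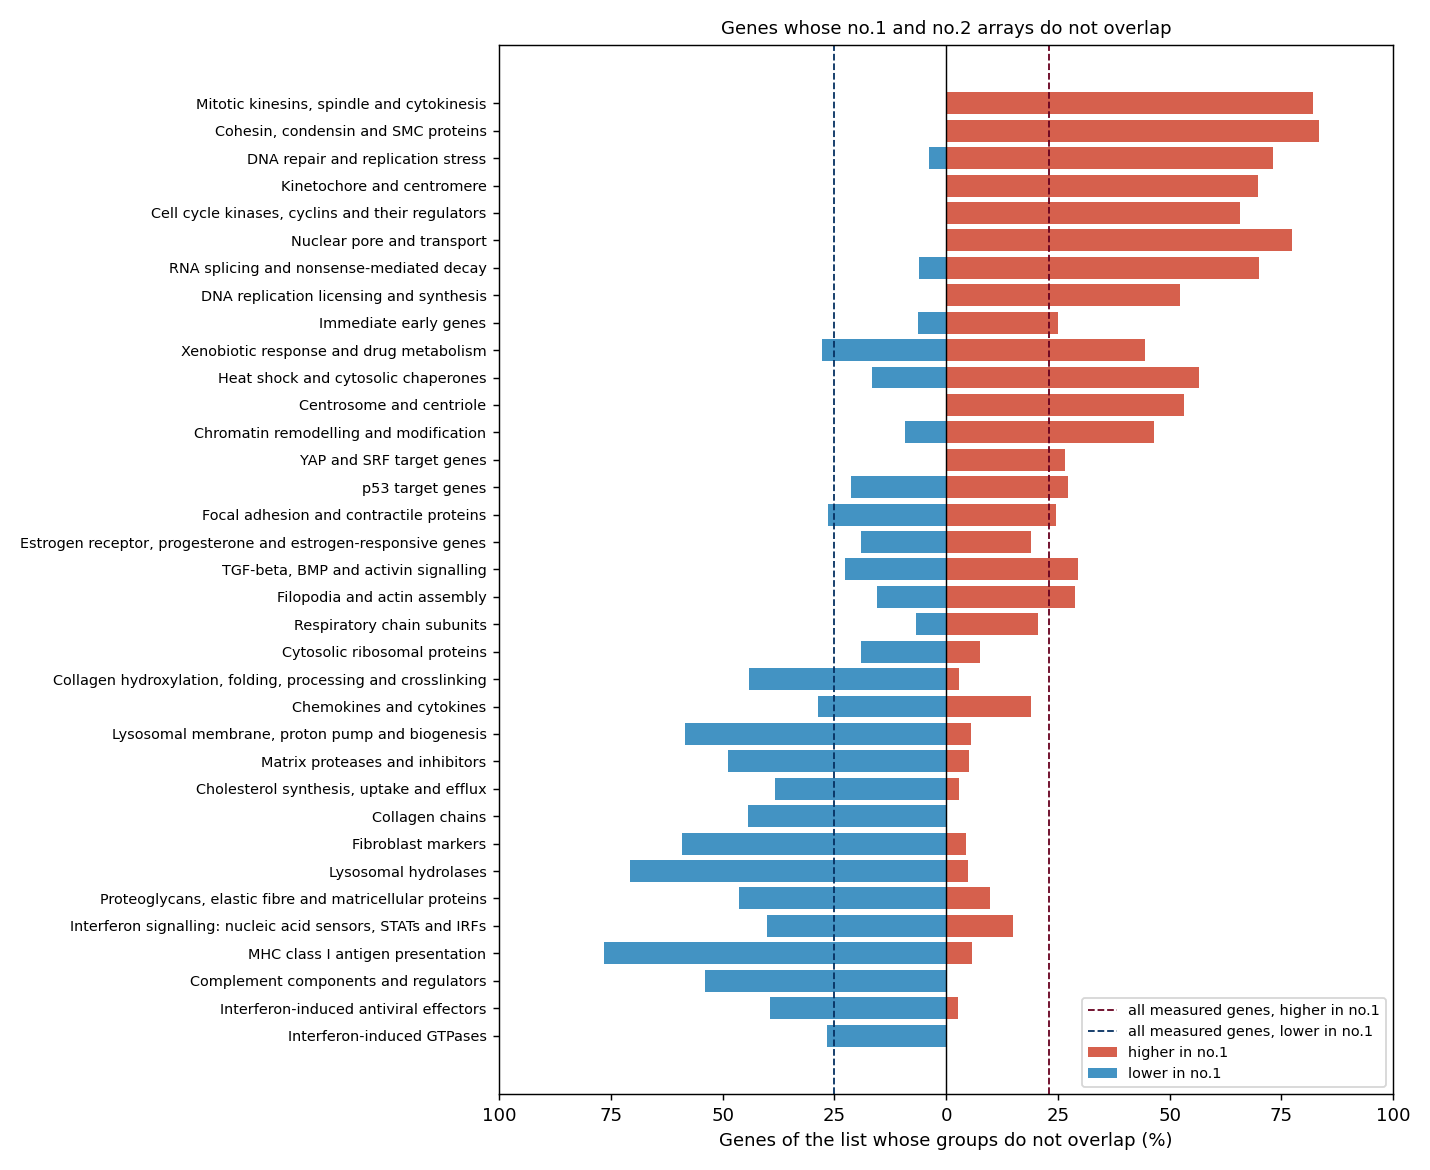
Share of each gene list (horizontal axis, percent) whose no.1 arrays both lay above (red, right) or both below (blue, left) the no.2 arrays; dashed lines give the same shares over all 22581 measured genes, 22.9% and 25.2%. Cohesin, spindle and nuclear pore genes reach furthest right, MHC class I genes and lysosomal hydrolases furthest left, the latter with a median that turns positive under spike-in scaling, while the estrogen-responsive list stays below both lines.

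Genes tied to tamoxifen as a drug showed no common direction. The estrogen-responsive list held 21 measured genes, 12 on the higher and 9 on the lower side (median 0.13), and 4 did not overlap in either direction. The median was -0.093 with normexp, -0.21 with no filter on dim probes and -0.13 over genes well above background on all 4 arrays. The estrogen receptor gene Esr1 was at -2.30 and -2.99 in no.1 and at -2.72 and -3.72 in no.2 and was well above background on only 1 no.2 array. Greb1, a known target of that receptor, was at -3.68 and -3.15 against -4.12 and -4.43 and was well above background on neither no.2 array. Mybl1 was at -0.83 and -1.73 against -2.68 and -2.31 (difference 1.22, SE 0.33), while Ccn5, an estrogen-induced matricellular gene, was at 0.14 and 2.82 against 3.63 and 3.39 (difference -2.03, SE 0.79). Of 18 xenobiotic response and drug metabolism genes 11 were on the higher and 7 on the lower side (median 0.44), 8 and 5 without overlap, and the median was 0.13 with normexp and -0.13 with no filter. The drug exporters Abcb1b and Abcg2 were at 1.47 and 0.67 against 0.19 and -0.38 (difference 1.16, SE 0.34) and at 4.69 and 3.89 against 3.60 and 3.41 (difference 0.79, SE 0.30). Tiparp, which the aryl hydrocarbon receptor induces, was at 1.24 and 1.10 against 0.37 and 0.38, with controls at 1.26 and 1.41 (difference 0.80, SE 0.19). Both of its no.1 arrays sat near the controls. The conjugating enzymes Gstt1 and Gstm1 were on the other side, at 0.20 and 1.97 against 2.60 and 3.23 (difference -1.83, SE 0.57) and at 3.56 and 4.64 against 5.16 and 5.67 (difference -1.31, SE 0.39). The estrogen-responsive list had a median of -0.10 without no.1 array 1, 0.30 without no.1 array 2, 0.25 without no.2 array 1 and -0.11 without no.2 array 2. The xenobiotic genes had a median of 0.21 without no.1 array 1 and 0.017 without no.2 array 2.

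Cholesterol genes, where cationic drugs such as tamoxifen are known to act, were mostly lower in no.1, although the median of -0.38 turned to 0.27 with spike-in scaling. Of 34 genes 27 were on the lower side and 13 of them did not overlap. The sterol-sensing receptor gene Nr1h3 was at -1.60 and -1.27 in no.1 and at -0.56 and -0.25 in no.2 (difference -1.03, SE 0.22). Its targets Abcg1 and Apoe, which export lipid, were at -3.49 and -2.09 against -1.66 and -1.52 (difference -1.20, SE 0.45) and at -1.36 and -1.36 against -0.74 and 1.39 (difference -1.68, SE 0.64). Of the synthesis enzymes, Mvk was at 4.98 and 5.04 against 5.50 and 5.54 (difference -0.51, SE 0.18, spike-in 0.14), whereas Idi1 overlapped, at 3.53 and 3.35 against 2.39 and 3.53; the list ran from -1.68 to 0.48. The cholesterol genes had a median of -0.59 without no.2 array 1 and -0.10 without no.2 array 2.

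Cytoskeletal and growth factor genes held members on both sides. Of 52 filopodia and actin assembly genes, a process in which cells push out thin protrusions, 30 were on the higher and 22 on the lower side (median 0.04), 15 and 8 without overlap. The formin Diaph3 was at 2.66 and 1.81 in no.1 and at 1.42 and 0.69 in no.2 (difference 1.18, SE 0.37) and the bundling protein Pls3 at 5.91 and 5.42 against 4.98 and 4.75 (difference 0.80, SE 0.24). Cdc42ep5 and Cdc42ep2, effectors of the GTPase Cdc42, were lower, at 1.49 and 2.20 against 2.97 and 3.26 (difference -1.27, SE 0.29) and at 1.75 and 2.48 against 3.04 and 3.17 (difference -1.0, SE 0.28), whereas Cdc42ep3 was at 3.57 and 2.63 against 2.31 and 2.18 (difference 0.85, SE 0.33). The list ran from -1.27 to 1.18. Of 49 focal adhesion and contractile genes 28 were on the higher side (median 0.13), with the collagen receptor subunit Itga11 at -0.58 and -0.02 against 0.73 and 2.66 and the laminin receptor subunit Itga6 at 3.84 and 3.21 against 2.83 and 1.68, which were the ends of the list with differences of -2.0 and 1.27. Of 30 YAP and SRF targets 26 were on the higher side (median 0.22) but only 8 did not overlap. No.1 array 1 was the highest array for 24 of the 30. Of 44 TGF-beta, BMP and activin genes 24 were on the higher side (median 0.04), 13 without overlap on that side and 10 on the lower. Id1, Id2 and Id3, inhibitors of differentiation that BMP signals induce, were at 5.76 and 4.15 against 4.32 and 2.49, at 1.53 and -0.95 against -1.35 and -2.90, and at 4.98 and 3.60 against 3.82 and 2.02. Each Id gene was highest on no.1 array 1 and lowest on no.2 array 2. Inhba, a subunit of activin, was at 5.02 and 4.76 against 4.11 and 3.35 (difference 1.16, SE 0.29), while Bmp2 was at -4.76 and -2.57 against -2.07 and 0.24, the low end of the list at -2.75; the high end, Id2, was 2.41. The Bmp2 level on no.1 array 1 was under -4.29, the lowest level well above background on that array. The filopodia genes had a median of -0.018 without no.1 array 1, 0.16 without no.1 array 2 and 0.10 without no.2 array 1. The focal adhesion genes had a median of -0.16 without no.1 array 1, 0.38 without no.1 array 2 and 0.072 without no.2 array 1. The YAP and SRF targets had a median of 0.011 without no.1 array 1, 0.59 without no.1 array 2 and 0.38 without no.2 array 2. The TGF-beta genes had a median of -0.032 without no.1 array 1, 0.13 without no.1 array 2 and 0.13 without no.2 array 2.

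Stress and growth signals also held genes on both sides. Of 33 p53 targets 20 were on the higher side (median 0.15), 9 and 7 without overlap. Mdm2, which degrades p53, was at 5.82 and 5.16 in no.1 and at 4.65 and 4.41 in no.2, with controls at 4.80 and 4.75 (difference 0.96, SE 0.27). Ccng1 was at 3.77 and 3.10 against 2.54 and 2.32 (difference 1.00, SE 0.27) and Pmaip1, which promotes cell death, at 2.25 and 1.92 against 1.30 and 1.26 (difference 0.81, SE 0.20). Cdkn1a, the p53-induced brake on the cell cycle, overlapped at 5.13 and 4.80 against 5.15 and 4.88. Cdkn2a, another brake on the cell cycle, is in the list although it is not a p53-induced gene. It was at 4.72 and 5.33 against 5.84 and 6.44, with controls at 7.86 and 7.95. The list ran from -1.12 to 1.00. Immediate early genes, which answer growth signals within minutes, were on the higher side in 28 of 32 (median 0.44), but 8 did not overlap, near the background share. No.2 array 2 was the lowest array for 25 of the 32. Nr4a1 was at 3.74 and 4.13 against 4.10 and 2.04, Egr1 at 4.87 and 4.35 against 4.43 and 2.82, and Jun at 5.61 and 5.53 against 6.04 and 4.49, each with 1 low array in no.2; the list ran from -0.58 to 1.84. The p53 targets had a median of 0.034 without no.1 array 1, 0.32 without no.2 array 1 and -0.044 without no.2 array 2. The immediate early genes had a median of 0.26 without no.1 array 1, 0.71 without no.2 array 1 and -0.041 without no.2 array 2.

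Some genes were measured in 1 of the groups alone. Genes well above background on both arrays of 1 group and neither of the other numbered 1036 for no.1 and 33 for no.2. A bound above 1 was found for 539 of the 1036 on the higher side in no.1 (median 1.20-fold, highest 3.16-fold). On the lower side it was found for all 33 (median 2.22-fold, highest 3.52-fold). A bound sets the mean of the bright group against the lowest signal well above background on the dim arrays, or the probe's own signal there if that is higher. Pkia, an inhibitor of protein kinase A, was at least 2.13-fold higher in no.1, Mettl21c, a methyltransferase, at least 2.11-fold and Prl2c3, a relative of prolactin with near-identical copies, at least 2.11-fold. Fxyd6, a regulator of the sodium pump, was at least 3.52-fold lower in no.1, the protease gene Adamts16 at least 3.24-fold and Prcd, a photoreceptor gene, at least 2.86-fold. The 75th percentile of the signal, which sets the scale, was 95.9 and 85.1 in no.1 against 55.1 and 56.9 in no.2, and its part in these counts was not tested. Normexp background correction turned the differences of Pkia, Mettl21c and Prl2c3 to -0.17, -0.10 and -0.047.

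Of the 50 gene lists, 35 are described above. The other 15, which hold the other cell types and lists of lipid, glycolysis, antioxidant, unfolded protein, Wnt and growth factor genes, had medians between -0.60 and 0.09.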

How the data were processed

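RNA of 6 samples was hybridised to 1-colour Agilent mouse arrays on 1 slide with 1 scan, 2 arrays in each of 3 groups; slide position followed the groups, so position and group cannot be told apart. The deposited scanner files hold background-subtracted intensity per probe from Feature Extraction 12.1.1.1, per the file headers, whereas the submitters' processing notes name 9.5.1.1. The series' deposited values matched the linear processed signal normalized by quantiles. On no.2 array 1, which had the lowest share, 99.9% of probes agreed within 1%. Log2 of the deposited values served as an alternative. Of 56605 non-control probes, 32994 (58.3%) had a symbol through a RefSeq table (GRCm38.p6), and 23611 had none. Log2 intensity minus each array's 75th percentile was computed, and for 6847 tested genes with several probes the probe of highest mean was kept. Genes well above background on both arrays of a group were tested with limma 3.58.1 (R 4.3.3) on all 6 arrays with 3 residual degrees of freedom and Benjamini-Hochberg adjustment, at 0.05; the step was tested on simulated data. The number of arrays limits the precision, and p-values measure only the spread between these arrays.

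The genes and lists were chosen with earlier results of these data known. Named were the lysyl hydroxylases, the 15 genes per direction with the largest gap between groups among genes with a symbol that were above background on all 4 arrays, up to 4 genes per list without overlap on the side of its median, up to 3 bounds per direction, and further list genes where the list's count or range is given. Alternatives were normexp (offset 50), which used the median spot signal because no mean signal column was present, scaling to the median probe, to 7 spike-in probes or by quantiles, the value table, other filters on dim probes, the mean of a gene's probes, no controls, a replicate block and leaving out each array. Promoter sequences are from RefSeq, GRCm38.p6.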

Additional observations from a re-analysis of the deposited data

How the results depend on the processing

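With 2 arrays a group the precision is set by the spread between arrays. Limma called no gene under any alternative run other than no filter on dim probes (520 genes higher and 7776 lower in no.1) and leaving out no.1 array 2; the lowest adjusted p was 0.0518 with normexp and 0.0616 with spike-in scaling. Leaving out an array gave 0 to 2 genes called higher and 0 to 115 called lower, 5181 to 10136 genes without overlap on the higher side and 5691 to 9957 on the lower, and gaps of at least 1 in 95 to 773 and 31 to 1297 genes; fewer arrays separate more easily by construction. Genes without overlap numbered 15373 higher and 103 lower with spike-in scaling, 9878 lower with normexp and 19311 lower with no filter. Gaps of at least 1 on the higher side were found for 11 genes with normexp, 1133 with spike-in scaling, 195 with no filter and 15 among genes well above background on all 4 arrays. On the lower side they were found for 0 genes with normexp, 20 with the median probe, 18 with quantile normalization, 0 with spike-in scaling, 19 in the series' value table, 429 with no filter and 7 among genes above background on all 4 arrays. The cause of these shifts was not tested.

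Signs of list medians larger than the spread between arrays, and of named genes, reversed as follows. With spike-in scaling the list medians were 0.21 for lysosomal hydrolases, 0.38 for the lysosomal membrane, 0.24 for collagen chains, 0.44 for collagen hydroxylation, 0.17 for proteoglycans, 0.27 for proteases, 0.27 for cholesterol and 0.21 for fibroblast markers. The differences were then 0.32 for B2m, 0.60 for Cdkn1a, 0.27 for Col1a1, 0.10 for Col1a2, 0.11 for Cryab, 0.074 for Hspa1a, 0.10 for Mcoln1, 0.14 for Mvk, 0.055 for Pcolce, 0.29 for Plod3, 0.61 for Smc5, 0.22 for Srek1 and 0.18 for Tfeb. With normexp the values were 0.0077 for the collagen hydroxylation median, 0.29 for Cdkn1a, -0.16 for Esr1, -0.29 for Greb1, -0.10 for Mettl21c, -0.17 for Pkia, -0.12 for Plod2, -0.047 for Prl2c3 and 0.16 for Smc5. Scaling to the median probe gave 0.062 for Cdkn1a and 0.068 for Smc5, the mean of a gene's probes -0.11 for Esr1 and 0.12 for Srek1, and no filter -0.13 for the xenobiotic median. Leaving out each array in turn gave ranges that cross 0, of -0.044 to 0.32 for the p53 median, -0.041 to 0.71 for the immediate early median, -0.47 to 1.08 for Jun, -0.16 to 1.89 for Nr4a1, -0.21 to 0.11 for Cdkn1a, -0.090 to 1.05 for Idi1, -0.66 to 0.57 for Smc5, -0.10 to 0.96 for Col4a1 and -0.066 to 4.06 for P4ha2. Medians smaller than that spread also turned sign: the estrogen-responsive list (-0.093 with normexp, -0.21 with no filter, -0.13 over genes measured on all 4 arrays), ribosomal proteins (0.22 with normexp, 0.57 with spike-in scaling, 0.032 with the median probe, 0.040 with quantile normalization, 0.038 in the series' value table), chemokines (0.43 with spike-in scaling) and TGF-beta genes (-0.014 with no filter), besides the turns with 1 array left out that are given with each list.

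With the replicate number as a block, 0 genes were called, 3766 had an unadjusted p under 0.05 and the lowest adjusted p was 0.250. Deviations from the group means correlated at 0.162 between no.1 and no.2 arrays of the same number and at -0.04 and -0.02 with the controls. The labels do not say that a number marks a shared culture or time, and the hours in the file names were not used to group arrays; they are the same for equal numbers of no.1 and no.2 but not for the controls, so the controls' correlations do not bear on that pairing. The median difference on arrays 1 and on arrays 2 was -2.55 and -0.19 for interferon effectors and -1.92 and -0.46 for MHC class I genes. A slide block was not run, as all 6 arrays lay on 1 slide.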
